A study of Cunninghamia lanceolata with 3 samples.

Results

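Expansins are secreted proteins that loosen the plant cell wall by weakening the contacts between cellulose and the polysaccharides around it, without cutting them. They act best in an acidic wall, so the plasma membrane proton pumps that acidify the wall work together with them when cells enlarge. Alpha-expansins and beta-expansins have shown this loosening activity, whereas the roles of the expansin-like families are less well known. In the vascular cambium of trees, the sheet of dividing cells that gives rise to wood and bark, enlarging daughter cells need such loosening.

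In Cunninghamia lanceolata (Chinese fir, a conifer), messenger RNA was read from the vascular cambium at 3 stages of the yearly cycle, labelled dormant, reactivating growing and active, with 1 library for each stage. All came from trees of about 16 years, 15 m tall and 12 cm in diameter, left under natural conditions, and the tissue was cut as tangential cryosections. The title of the dormant library also contains the word growing, and its stage label was followed. The labels give neither genotype nor treatment, nor how many trees make up a library. Uniquely mapped reads were counted on unigenes, which are assembled transcript sequences that can be whole transcripts, fragments or close copies.

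Of 53590 unigenes with a read in any library, 18 had the word expansin in the text of their best protein hit. The 10 described here were chosen by their reads summed over the 3 libraries, the most read first, and they held 94.5% of all expansin reads. Their totals are therefore not a finding. A unigene high in a single library could be chosen through that library alone. Unigene53531 was, with 611 of its 676 reads in the dormant library. The last one kept, Unigene8395, had 336 reads in all, and the first one left out, Unigene7691, had 247. All 10 members had 20 or more reads in each pair of libraries, the minimum for a comparison, so none was lost to that filter.

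Each stage has a single library, so no difference between stages could be tested against replicates. Ranges in parentheses are 95% exact intervals from the reads. They cover counting error only, not variation between trees or libraries, and they take reads as independent, which PCR copies are not. Levels are given as the deposited RPKM, reads per kilobase of unigene, scaled to a common library size. Ratios for 1 unigene are ratios of RPKM, and ratios for a sum over unigenes are of summed reads per library, in which long unigenes weigh more than in a sum of RPKM. In bulk tissue, fewer cells of a type and less RNA per cell cannot be told apart. The libraries were of nearly equal size, with 5.85 M, 5.85 M and 5.84 M reads for dormant, reactivating and active cambium, so 3 reads on a unigene of 1 kilobase stand for an RPKM of about 0.513.

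The members had 5 distinct best hits among them. An expansin-like protein of C. lanceolata itself was the best hit of Unigene43320, Unigene387, Unigene53531, Unigene36740 and Unigene8395, and expansin 2 of C. lanceolata was that of Unigene25630. Unigene57087 matched alpha-expansin 3 of hybrid aspen (Populus tremula x Populus tremuloides), Unigene52860 matched alpha-expansin 13 of castor bean (Ricinus communis), and Unigene13720 and Unigene16699 both matched expansin 1 of banana (Musa acuminata). A best hit names a likely relative and is not a tested function. The members were 178 to 952 bases long with a median of 441.5, so several are likely partial, and whether those with a common hit are pieces of 1 transcript or separate genes was not tested. In the deposited gene ontology terms, Unigene57087, Unigene52860 and Unigene16699 carried cellular cell wall organization, and Unigene387 and Unigene13720 carried plant-type cell wall modification.

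Reads covered at least 90% of the length of the unigene in 29 of 30 member values. The exception was Unigene53531 in the reactivating library, with 16.4% covered by 2 reads.

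Summed over the 10 members, expansin reads numbered 2898, 3545 and 3917 in the dormant, reactivating and active cambium, which is 0.0495%, 0.0606% and 0.0670% of all reads. The sum was 1.22-fold higher (1.16 to 1.28) in the reactivating than in the dormant library and 1.11-fold higher (1.06 to 1.16) in the active than in the reactivating library. The sum depended on its scale and on single unigenes. The summed RPKM was 1140, 1555 and 1534, so on that scale the reactivating library was 1.36-fold above the dormant one and the active library was at 0.987 of the reactivating one. In reads, the higher sum of the growing stages rested on Unigene57087 and, at reactivation, also on Unigene25630. Without Unigene57087 the sum of the other 9 was 1.15-fold lower (1.09 to 1.21) in the reactivating than in the dormant library, and the active to reactivating ratio was 0.974 (0.919 to 1.03). Without Unigene25630 the reactivating to dormant ratio of the reads was 1.01 (0.963 to 1.07), and that of active to dormant was 1.18 (1.12 to 1.24). In RPKM the higher sum rested on Unigene25630. The reactivating to dormant ratio of the summed RPKM was 1.21 without Unigene57087 and 0.849 without Unigene25630.

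What differed most was which expansins made up the total. In the dormant library the 5 unigenes with the expansin-like hit gave 60.5% of the members' reads, against 25.6% at reactivation and 22.3% when active. Unigene57087 and Unigene25630 together gave 7.90% of the dormant reads, 51.6% of the reactivating and 55.6% of the active reads. The most read member was Unigene53531 in the dormant library, with 21.1% of the members' reads, and Unigene57087 in the reactivating and active libraries, with 33.3% and 41.3%.

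**Figure D1:**
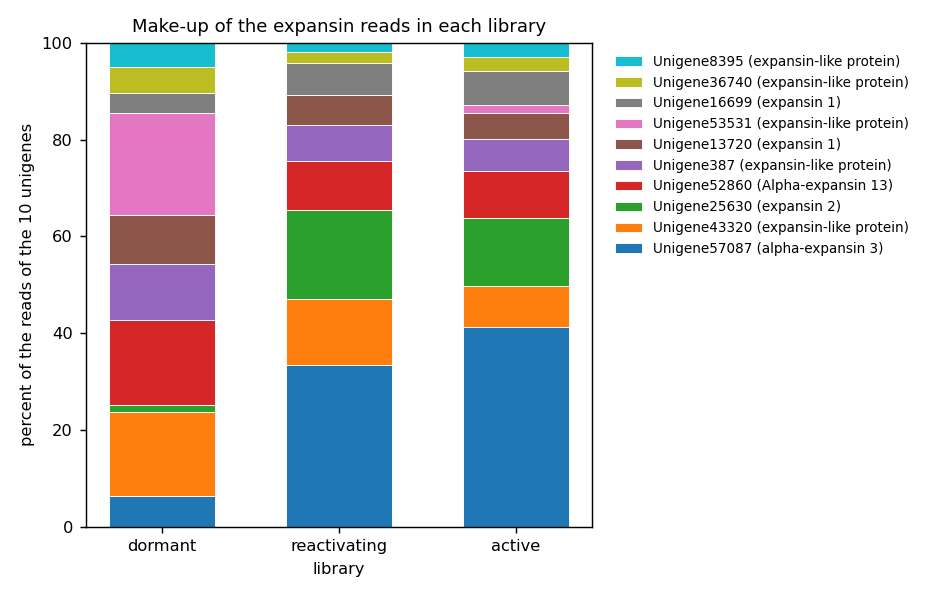
Share of the reads of the 10 expansin unigenes (percent, vertical axis) held by each unigene in the dormant, reactivating and active libraries (horizontal axis), 1 bar per library. The share of Unigene57087 goes from 6.42% over 33.3% to 41.3%, and that of Unigene53531 from 21.1% to 0.0564% and 1.61%.

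The unigene matching alpha-expansin 3 of hybrid aspen, Unigene57087, had 186 reads in dormant, 1182 in reactivating and 1619 in active cambium. Its RPKM was 33.4, 212 and 291. It was low in the dormant library and high in both growing ones, and its 3 counting intervals did not overlap. The reactivating level was 6.35-fold above the dormant level (5.44 to 7.46), and the active level was a further 1.37-fold higher (1.27 to 1.48).

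Expansin 2, Unigene25630, had 43, 648 and 557 reads, with an RPKM of 41.3, 622 and 536. At 178 bases it is the shortest member, and its RPKM was the highest of all members in both growing libraries. By RPKM it ranked 227 among all unigenes in the reactivating library and 342 in the active one, against 12113 in the dormant one. It is shorter than the sequenced fragments of about 200 bp, so its RPKM and ranks compare poorly with those of longer unigenes. By reads, Unigene57087 was above it in both growing libraries, with 1182 and 1619. The dormant level of Unigene25630 was far below both others. The reactivating library stood 15.1-fold above the dormant one (11.1 to 21.0), and the active library was slightly below the reactivating one, 1.16-fold (1.04 to 1.30).

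A smaller difference of the same direction was seen for Unigene16699, a match to expansin 1 of banana. It had 115 reads in dormant, 229 in reactivating and 280 in active cambium, with an RPKM of 30.0, 59.7 and 73.0. The dormant value lay below both growing values, with counting intervals apart from them. Its ratio of reactivating to dormant was 1.99 (1.58 to 2.51), just under the 2-fold used to call a unigene higher, and that of active to dormant was 2.44 (1.95 to 3.06).

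The other match to the same banana protein, Unigene13720, was slightly higher in the dormant library instead. It had 294, 221 and 212 reads and an RPKM of 57.3, 43.0 and 41.3. It was 1.33-fold lower (1.11 to 1.59) in the reactivating than in the dormant library, and the active to reactivating ratio of 0.960 (0.792 to 1.16) was not distinguishable from 1 at this depth. Summed over both unigenes, the reactivating to dormant ratio was 1.10 (0.960 to 1.26), so the sum hides the opposite directions of its members.

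The match to alpha-expansin 13, Unigene52860, was an abundant expansin at all stages, with 508 reads in dormant, 359 in reactivating and 374 in active cambium. Its RPKM was 155, 109 and 114. It was highest in the dormant library, 1.42-fold above the reactivating one (1.23 to 1.62 for the fold), and its reactivating and active counts did not differ beyond counting error, at a ratio of 1.04 (0.900 to 1.21). The alpha-expansin names therefore covered unlike patterns, with Unigene57087 low and Unigene52860 high in the dormant library.

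**Figure D2:**
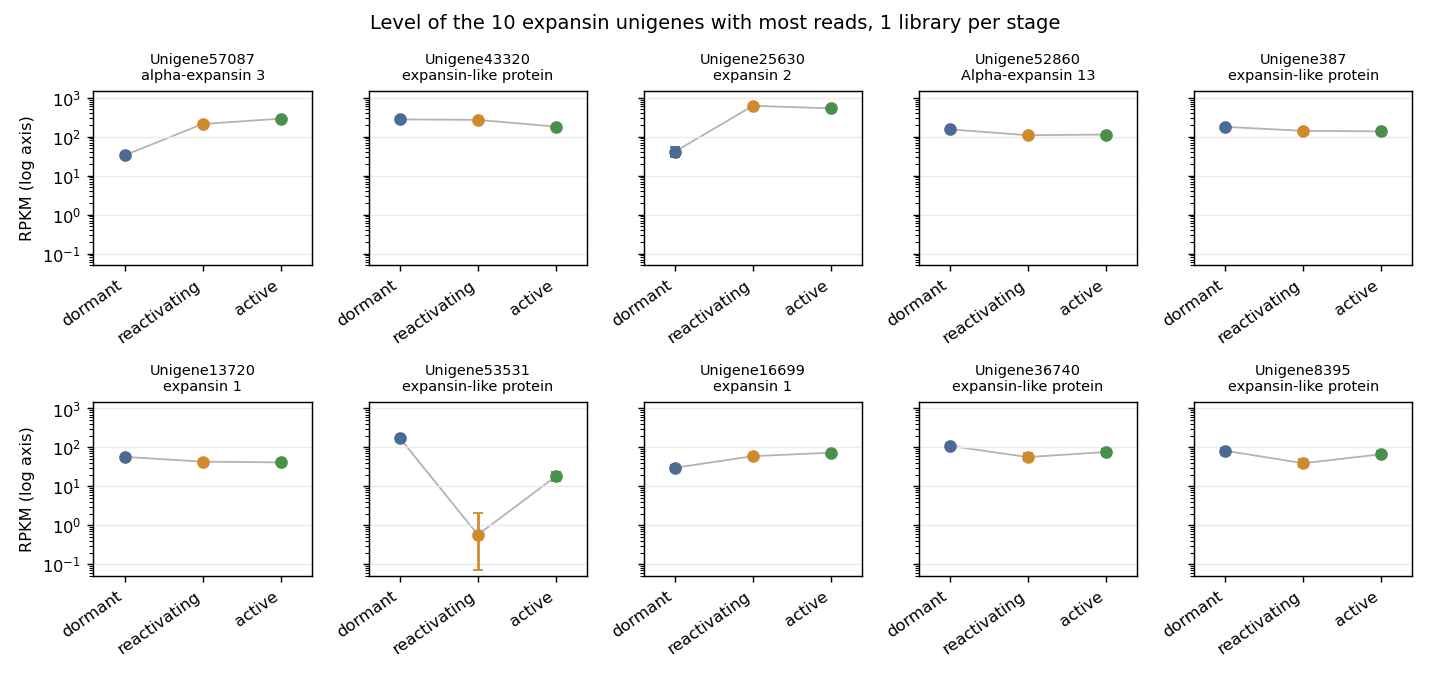
RPKM (vertical log axis) of each of the 10 expansin unigenes in the dormant, reactivating and active libraries (horizontal axis), 1 point per library with its 95% exact Poisson interval, which covers counting error only. Unigene57087 and Unigene25630 are lowest in the dormant library, Unigene53531 is at 0.572 in the reactivating library, and the other 7 differ by at most 2.44-fold over the 3 libraries.

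Among the 5 unigenes with the expansin-like hit, 1 differed far more between libraries than the other 4. Unigene53531 had 611 reads in dormant, 2 in reactivating and 63 in active cambium, and its RPKM was 175, 0.572 and 18.0. It was high in the dormant library, nearly unread in the reactivating one and intermediate in the active one, with no overlap of the counting intervals. Its place among the members rests on its dormant reads, so the choice by summed reads favoured a high dormant level. The reactivating level was 306-fold below the dormant one (84.2 to 2529), and the active level 9.69-fold below it (7.47 to 12.8). From the reactivating to the active library its ratio was 31.5 (8.38 to 266), an imprecise value since it rests on those 2 reads.

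Unigene43320 had 501, 488 and 326 reads and an RPKM of 278, 271 and 181. It was the expansin with the highest RPKM in the dormant library. Its dormant and reactivating counts did not differ beyond counting error, with a ratio of 0.974 (0.858 to 1.11), and the active library was 1.50-fold below the reactivating one (1.30 to 1.73). Its lowest level was in the active library, apart from both others by its counting interval.

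Unigene387 had 337, 265 and 258 reads, with an RPKM of 179, 141 and 138. The dormant library was the highest, and the reactivating one was 1.27-fold lower (1.08 to 1.50). Its active and reactivating counts were close, at a ratio of 0.975 (0.818 to 1.16).

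The remaining pair, Unigene36740 and Unigene8395, had their lowest levels in the reactivating library. Unigene36740 had 156, 81 and 109 reads, with an RPKM of 109, 56.5 and 76.1, and was 1.93-fold lower (1.46 to 2.55) in the reactivating than in the dormant library. Unigene8395 had 147, 70 and 119 reads, with an RPKM of 82.4, 39.2 and 66.8. It was 2.10-fold lower (1.57 to 2.83) in the reactivating than in the dormant library and 1.70-fold higher (1.26 to 2.32) in the active than in the reactivating library. Its active and dormant counts did not differ beyond counting error, at a ratio of 0.810 (0.631 to 1.04).

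Summed over the 5 expansin-like members, the reads numbered 1752, 906 and 875, and the reactivating library was 1.93-fold lower (1.78 to 2.10) than the dormant one. Without Unigene53531 the other 4 summed to 1141, 904 and 812 reads and were 1.26-fold lower (1.16 to 1.38). The 5 members with other hits summed to 1146, 2639 and 3042 reads and were 2.30-fold higher (2.15 to 2.47) in the reactivating than in the dormant library. Hence the sum of the expansin-like members was lower, and the sum of the others higher, in both libraries of growing cambium. The higher sum of the others rested on Unigene57087 and Unigene25630, which held 229, 1830 and 2176 of its reads. Unigene52860 and Unigene13720, also in that sum, were highest in the dormant library, and Unigene16699 was lowest there. The members with other hits therefore did not share a direction. All 5 expansin-like members were below their dormant level in both growing libraries. The difference was within counting error for Unigene43320 in the reactivating library and for Unigene8395 in the active one. In summed RPKM the expansin-like members stood at 824, 508 and 480 and the others at 316, 1046 and 1055.

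The order of RPKM levels differed between libraries. In the dormant library it ran from Unigene43320 over Unigene387, Unigene53531, Unigene52860, Unigene36740, Unigene8395, Unigene13720, Unigene25630 and Unigene57087 to Unigene16699. For 6 of the 9 neighbouring pairs in that order the counting intervals overlapped, the exceptions being Unigene43320 over Unigene387, Unigene52860 over Unigene36740 and Unigene8395 over Unigene13720. The reactivating and active orders both began with Unigene25630, whose interval lay apart from the next member. In the reactivating library Unigene43320, Unigene57087, Unigene387 and Unigene52860 followed with intervals apart, then Unigene16699, Unigene36740, Unigene13720 and Unigene8395 with each overlapping its neighbour, and Unigene53531 came last with its interval apart. In the active library the order was Unigene25630, Unigene57087, Unigene43320, Unigene387, Unigene52860, Unigene36740, Unigene16699, Unigene8395, Unigene13720 and Unigene53531, and 3 of 9 neighbouring pairs overlapped. The ratio of the highest to the lowest RPKM was 9.28, 1088 and 29.7 in dormant, reactivating and active cambium, and Unigene53531 was the lowest in the last 2.

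The first comparison sets the cambium that restarts growth against the dormant one. Between the reactivating and dormant libraries 2 of 10 members, Unigene57087 and Unigene25630, were at least 2-fold higher, against 16.9% of all measured unigenes. Lower by at least 2-fold were 2 of 10, Unigene53531 and Unigene8395, against 13.8% of all. Both shares are near those over all unigenes. Unigene36740, at 1.93-fold lower, passes 2-fold with TMM or DESeq2 scaling of the libraries. The median log2 ratio of the members was -0.38, and that of all unigenes was 0.07. The counting interval left out a ratio of 1 in 9 members, 3 above and 6 below it. The share over all unigenes was not computed for this, and members chosen for most reads tend to have narrow intervals. In 3 members the interval lay wholly beyond 2-fold. These were Unigene57087 and Unigene25630 above, against 8.83% of all unigenes, and Unigene53531 below, against 6.21%.

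Next, the reactivating and the fully active cambium were compared. Here 1 of 10 members, Unigene53531, was at least 2-fold higher, against 6.76% of all measured unigenes. None of the 10 was at least 2-fold lower, against 5.14% of all. The members' median log2 ratio was 0.18, beside -0.06 over all unigenes, and 9 of 10 members stayed within 2-fold. The counting interval of Unigene53531 lay wholly above 2-fold, as in 2.66% of all unigenes, and none lay wholly below it, as in 0.862%. Over all members the interval left out a ratio of 1 in 7, with 5 above and 2 below it, again without a computed share over all unigenes.

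The third comparison, active against dormant, shares its libraries with the other comparisons and is not independent of them. In it 3 of 10 members were at least 2-fold higher, namely Unigene57087 at 8.71-fold (7.48 to 10.2), Unigene25630 at 13.0-fold (9.50 to 18.1) and Unigene16699 at 2.44-fold, against 18.1% of all unigenes. Only Unigene53531 was at least 2-fold lower, against 13.8% of all. Intervals wholly beyond 2-fold were those of Unigene57087 and Unigene25630 above, against 10.1% of all, and of Unigene53531 below, against 6.35%. The median log2 ratio was -0.41 for the members and 0.01 over all unigenes.

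**Figure D3:**
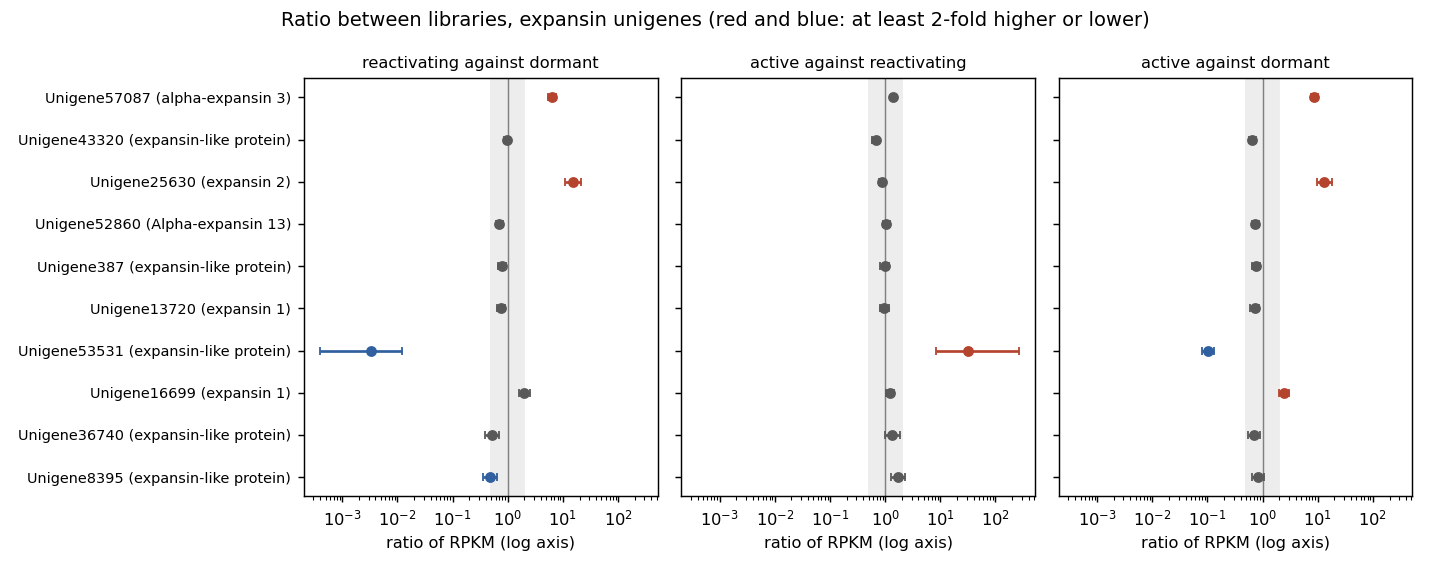
Ratio of RPKM between libraries (horizontal log axis) for each of the 10 expansin unigenes (rows) with 95% exact counting intervals, 1 panel per comparison, with the range within 2-fold shaded. Unigene57087 at 6.35 and Unigene25630 at 15.1 lie above the shaded range in the panel of reactivating against dormant, and Unigene53531 lies far below it.

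**Figure D4:**
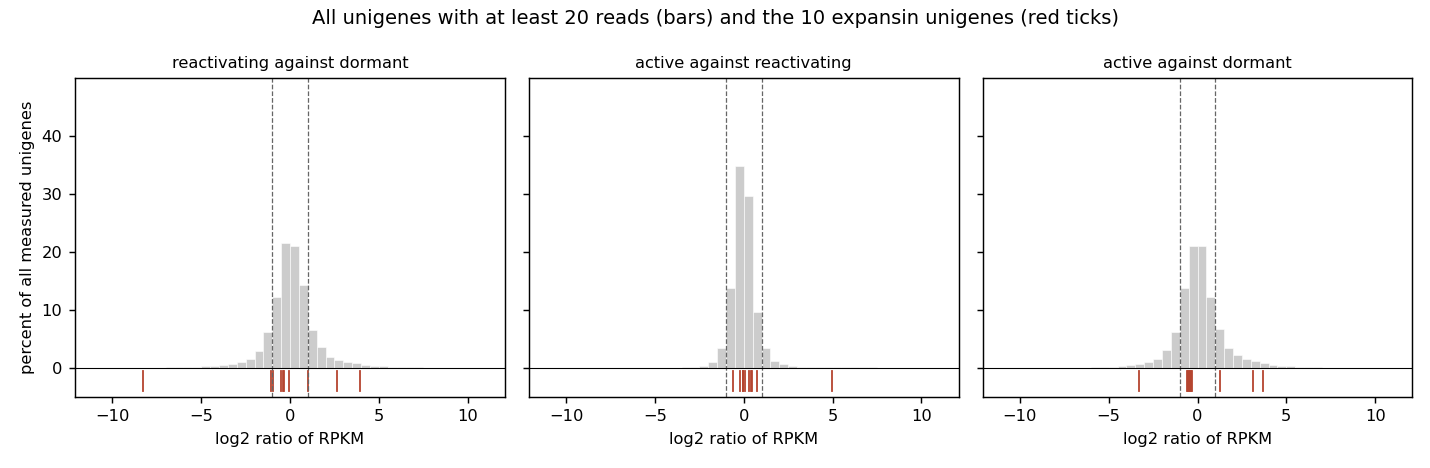
Distribution of the log2 ratio over all unigenes with at least 20 reads (bars, percent of unigenes) and the 10 expansin unigenes (red ticks under the bars), 1 panel per comparison, with dashed lines at 2-fold. Most ticks lie within the bulk of the bars, and Unigene53531 lies at -8.26 in reactivating against dormant and at 4.98 in active against reactivating.

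For the pattern over the 3 stages, a library counts as set apart where its RPKM is at least 2-fold above or below both others, among unigenes with 50 or more reads in all. The dormant library was below both others for 2 of 10 members, Unigene57087 and Unigene25630, as for 12.9% of 31946 unigenes. For Unigene53531 the dormant library was above both others, as for 8.10% of unigenes, and the reactivating library below both others, as for 2.73%. Because Unigene53531 was chosen through its dormant reads, its pattern beside these shares is a description only. No library was set apart for the other 7 members, as for 73.1% of unigenes. None of the 10 had the reactivating library above both others (1.37% of unigenes), the active library above both others (3.16%) or the active library below both others (2.08%).

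The 8 expansin unigenes with fewer reads summed to 131, 221 and 248 reads. Unigene7691, whose best hit is a beta-expansin 3 of castor bean, had 21, 98 and 128 reads and an RPKM of 18.0, 84.2 and 110. It was low in the dormant library and 4.67-fold higher (2.89 to 7.87) in the reactivating one. Unigene22894, with the expansin-like hit, had 72, 58 and 61 reads, and Unigene1724, matching an orchid expansin (Oncidium Gower Ramsey), had 21, 27 and 34. Neither differed beyond counting error in any comparison. Unigene14630, matching alpha-expansin 8, had 13, 11 and 11 reads. Unigene26928, matching alpha-expansin 15, had 0, 17 and 5 reads, too few for a comparison with the dormant library, and was 3.40-fold lower (1.20 to 11.8) in the active than in the reactivating library. The last 3, Unigene31644, Unigene31628 and Unigene49775, had 18, 3 and 2 reads in all. Unigene49775 matched expansin 1 of C. lanceolata itself, a name that had almost no reads in this cambium.

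The unigenes most like the 5 most read members were found by the distance between their shares of RPKM over the 3 libraries, among 2421 others with a protein name and 200 or more reads. Closest to Unigene57087 were a pectin methylesterase-like protein (Unigene50826, distance 0.0117), of an enzyme family that modifies wall pectin, with 83, 511 and 677 reads, and a kinase family protein (Unigene59176, distance 0.0198). A cytochrome P450 704C1 (Unigene58376, distance 0.00842), with 150, 2695 and 2352 reads, and a thaumatin-like protein 1 (Unigene36136, distance 0.0103) were nearest to Unigene25630. Unigene52860 lay nearest to a mitogen activated protein kinase 6 (Unigene54069, distance 0.00393) and a peptide chain release factor (Unigene49266, distance 0.00473). For Unigene387 they were an auxin influx carrier (Unigene24868, distance 0.00310), which takes auxin into cells, and a helicase (Unigene17079, distance 0.00462), and for Unigene43320 a plastidial fatty acid desaturase (Unigene58412, distance 0.00556) and a reverse transcriptase (Unigene49449, distance 0.00906). With 3 libraries close matches are easily found, so these are descriptions.

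Other genes of the enlarging wall were set beside the expansins, and their counts between reactivating and dormant are read against the 16.9% higher and 13.8% lower over all unigenes. Of 9 measured endo-1,4-glucanases, which cut glucan chains, 7 passed 2-fold upward and 2 downward from dormant to reactivating, and their median log2 ratio was 4.09. Endo-beta-1,4-glucanase Unigene47139 had 1, 900 and 1576 reads, and its reactivating to dormant ratio was 900 (161 to 35580). Xyloglucan endotransglucosylases, which cut and rejoin wall xyloglucan, had 4 of 9 higher and 1 lower, with a median of 0.97. The most read of them, Unigene18243, had 945, 1019 and 630 reads, while Unigene47961 had 3, 144 and 150 and was 48.0-fold higher (16.1 to 235) in the reactivating than in the dormant library. Pectin-modifying unigenes had 12 of 23 higher and 2 lower, with a median of 1.16. These medians of reactivating against dormant lie above the -0.38 of the expansin members, a difference that was not tested. For active against dormant the members' median was -0.41. There the endo-1,4-glucanases stood at 4.23 and the pectin-modifying unigenes at 1.85, but the xyloglucan endotransglucosylases lay lower, at -0.58.

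Of 5 plasma membrane proton pump unigenes, 1 was at least 2-fold higher and 1 lower in the reactivating than in the dormant library. For active against dormant, 1 was higher and 2 were lower, beside 18.1% and 13.8% over all unigenes. Unigene43681, similar to a plasma membrane H+-ATPase, had 35, 299 and 309 reads and stood 8.54-fold (6.01 to 12.5) above its dormant level in the reactivating library. The pump unigene with most reads, Unigene52483, was read 392, 170 and 136 times, which is 2.31-fold less (1.92 to 2.78) in the reactivating library. The summed reads of the pumps were 709, 723 and 805. Water channels, through which cells take up water, had 2 of 3 higher and 1 lower. Unigene49827, a plasma membrane intrinsic protein, was read 2167, 12 and 2138 times, so it was low in the reactivating library, as was Unigene53531, but in the active library it was close to its dormant level.

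Gibberellin and auxin are growth hormones known to raise expansin expression in other plants. Of 8 measured gibberellin unigenes 3 were at least 2-fold higher and 0 lower in the reactivating than in the dormant library, and 5 were within 2-fold. The summed reads of all 12 gibberellin unigenes were 741, 3505 and 3177, but a single GASA5-like unigene, Unigene46844, held 96, 2110 and 1907 of them. Without it the sums were 645, 1395 and 1270, and the reactivating to dormant ratio was 2.16 (1.97 to 2.38) in place of 4.73 (4.37 to 5.13). Among 70 auxin unigenes 18 were higher and 12 lower, or 25.7% and 17.1%, beside 16.9% and 13.8% over all unigenes. For secondary wall formation, cellulose synthases had 13 of 39 higher and 18 lower, and laccases, which polymerise lignin, 7 of 15 higher and 8 lower. The most read cellulose synthase, Unigene43616, had 263, 18 and 1752 reads, and the most read laccase, Unigene56615, had 1974, 21 and 5357. Both were low in the reactivating library, as was Unigene53531, but were highest in the active one. From the reactivating to the active library 23 of 43 cellulose synthases and 16 of 20 laccases were at least 2-fold higher, beside 6.76% over all unigenes and 1 of 10 expansin members.

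Between active and reactivating, 1 of 9 endo-1,4-glucanases was higher and 0 lower, 0 of 9 xyloglucan endotransglucosylases higher and 2 lower, and 4 of 26 pectin-modifying unigenes higher and 1 lower, beside 6.76% higher and 5.14% lower over all unigenes. None of the 5 proton pump unigenes was at least 2-fold apart in either direction. Of the 3 water channels 1 was higher, of 9 gibberellin unigenes 1 higher and 1 lower, and of 74 auxin unigenes 12 higher and 1 lower.

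Marker lists were read for the labelled tissue and its neighbours. Of all 53590 unigenes, 49675, 50059 and 50498 had a read in the dormant, reactivating and active libraries. Having a read therefore marks no tissue. The cambium and meristem list counts CLAVATA-type receptors too. Of its 53 unigenes 51, 52 and 50 were read in these libraries, near the share over all unigenes. Their summed RPKM was 2240, 3087 and 3805. The unigenes without reads were CLAVATA-type receptors, and all 3 AINTEGUMENTA-like unigenes were read in every library. Differentiating xylem markers, which include the cellulose synthases and laccases, had 71, 76 and 83 of 83 unigenes with a read and a summed RPKM of 3286, 2147 and 12323. For phloem, all 3 sucrose transporters were read in every library, with a summed RPKM of 133, 28.9 and 34.2 and summed reads of 507, 252 and 300. The most read of them, Unigene11789, had 243, 229 and 272 reads, and the other 2 together had 264, 23 and 28. Green tissue markers had 24, 23 and 23 of 24 unigenes read and a summed RPKM of 136, 96.0 and 80.8, with a chlorophyll a-b binding protein at 0 in both growing libraries. Resin duct and bark markers had 17, 9 and 11 of 18 read and a summed RPKM of 115, 114 and 32.0, with pinene and abietadiene synthases among those at 0. Epidermis and periderm markers had 4, 5 and 5 of 6 read and a summed RPKM of 149, 99.0 and 84.6. The summed levels of all 6 lists differed between stages to some extent, as did those of several expansins, and their part in the expansin values was not tested.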

How the data were processed

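Each library was deposited as 1 table by the authors. Per the file headers, it holds the raw count of uniquely mapped reads per unigene, the RPKM, the percent of its length under reads, the gene ontology terms and best protein hit. Per the labels' protocols, mRNA was enriched with oligo(dT) beads, broken to about 200 bp, copied with random hexamers and sequenced on an Illumina HiSeq instrument, with no strand step described. Assembler, mapper, origin of the unigenes and treatment of multi-mapping reads were not given in the sources used here. In every row the deposited RPKM value equalled the count divided by length and by the library total, to a relative gap of at most 7.24e-09. A lone read covered 49 bases in all 9606 cases, so reads counted as 49 bases long. Close copies share reads, which a unique count drops.

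A unigene missing from a table was set to 0 reads, and to a floor of 3 reads within a ratio. Ratio intervals are Clopper-Pearson and level intervals Poisson (95%), in Python 3.11.15 with scipy 1.17.1. The ratio intervals were tested on simulated reads drawn from a Poisson model, the one they assume. That test could not show how they hold under variation between libraries, and the level intervals were not part of it. A call needed a 2-fold ratio and at least 20 reads over both libraries. Lists are patterns in the best-hit text, 9 of wall growth and 6 of tissue markers, leaving out names of inhibitors. The members, the lists and the rules were chosen with earlier results of these data known, and the list patterns were tightened after their matches were seen. Unigenes named from a list have most reads or the largest ratio either way between reactivating and dormant (100 or more reads), and only part of them is given. Alternatives used edgeR 4.0.16 TMM factors and DESeq2 1.42.0 size factors for scaling only.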

Additional observations from a re-analysis of the deposited data

How the results depend on the processing

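With 1 library per stage the depth limits only the counting error, and tree-to-tree variation is unknown. No paired analysis was possible because each stage has 1 library. The TMM and DESeq2 scalings moved the log2 ratios little, the most being -0.07 for reactivating against dormant with TMM, and Unigene36740 then passed 2-fold lower between reactivating and dormant (ratio 0.494 with TMM and 0.496 with DESeq2). In that comparison the 2 lower members became 1 at 4-fold and 1 with intervals wholly beyond 2-fold. With unigenes of at least 500 bases there was 1 higher and 1 lower of 5. With reads summed by best-hit protein 0 of 5 were lower, and without the members of the expansin-like hit, an alternative added after seeing the data, 0 of 5. Between active and reactivating the 1 higher member became 0 at a minimum of 100 reads, 0 with reads summed by best-hit protein and 0 without the expansin-like members, since Unigene53531 is then left out or pooled. Over all expansin unigenes 1 was lower, Unigene26928. Between active and dormant the 1 lower member became 0 with reads summed by best hit and 0 without the expansin-like members. The summed ratio of reactivating to dormant, 1.22, was 1.16 with TMM factors and 1.16 with unigenes of at least 500 bases, and in the alternatives added after seeing the data 1.55 without Unigene53531 and 0.871 without Unigene57087. As a sum of RPKM, also added after seeing the data, it was 1.36, and 0.849 without Unigene25630. For active to reactivating it was 1.28 with unigenes of at least 500 bases and 0.974 without Unigene57087, and as a sum of RPKM 0.987, or 0.926 without Unigene57087. For active to dormant it was 1.49 with unigenes of at least 500 bases, 1.69 without Unigene53531 and 0.848 without Unigene57087, and as a sum of RPKM 1.12 without Unigene57087 and 0.909 without Unigene25630. The other causes were not tested. Of 125 alternative values of the counts, medians and sums, 98 stayed close to the main value, as did 88 of 90 values of single members.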

Other observations

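Wall-related gene ontology terms also marked unigenes without an expansin name. The term cellular cell wall organization was on 26 unigenes, 6 of them expansins. Of the other 20, 15 had enough reads, with a median log2 ratio of 0.60 for reactivating against dormant. In that comparison 7 of the 15 were at least 2-fold higher and 1 lower, beside 16.9% and 13.8% over all unigenes. Unigene13227, with a best hit of unknown function, had 16 dormant, 1547 reactivating and 1491 active reads, and its reactivating level was 96.7-fold above the dormant one (59.3 to 170). Unigene15301, also without a named function, had 1, 70 and 26 reads. The reverse was seen for Unigene12389, a predicted protein, with 392, 125 and 87 reads.

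The term plant-type cell wall modification was on 8 unigenes, of which 4 were expansins. All 4 others, none with a protein name, had their highest reads in the active library. For Unigene42575, with 6, 14 and 16 reads, that peak was within counting error. Its active to reactivating ratio was 1.14 (0.523 to 2.53), and its active to dormant ratio was 2.67 (0.992 to 8.33). From dormant to active all 4 passed 2-fold upward, beside 18.1% over all unigenes. From reactivating to active only 1 of the 4 did, beside 6.76%. Unigene58734 had 310, 520 and 873 reads and Unigene16685 had 39, 148 and 274. These unigenes were chosen by the terms and named after their values were seen.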
